A study of Mus musculus with 10 samples.

Results

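The 7 genes described here are the non-classical (class Ib) MHC class I genes H2-Q4, H2-Q6, H2-Q7, H2-T10, H2-T22, H2-T23 and H2-M3, taken by symbol from the 55385 mouse genes of the count table. They were selected on group differences in these same counts, seen in earlier results, so their levels and differences are a description. They were measured in neutrophils of grafted mouse squamous cell carcinomas. Tumours grew from parental cells with low Sox2 (Sox2low control) or from Sox2Hi cells, Sox2 being a stem cell transcription factor. Every host was a CatchupIVM-red mouse, in which a red Tomato reporter follows the neutrophil gene Ly6g, and the libraries were made from Tomato+ cells. The sample descriptions carry C57 in all 4 groups and GFP in the control graft. Tumours were left untreated (naive) or their hosts received anti-PDL1/CD40 agonist immunotherapy (treated). There were 3 naive and 2 treated libraries of control tumours, and likewise 3 naive and 2 treated libraries of Sox2Hi tumours. The study asked whether tumour cell Sox2 weakens how neutrophils answer interferons. The labels do not say whether replicates came from separate mice, so p-values measure only the spread between these libraries.

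Classical class I molecules (H2-K and H2-D in the mouse) show peptides to CD8 T cells on nearly all cells. Class Ib molecules resemble them but vary less between individuals and have narrower tasks, often in front of NK cells or unconventional T cells. H2-T23 encodes Qa-1, which holds leader peptides of other class I molecules and is read by the receptor pair of Klrd1 (CD94) and Klrc1 (NKG2A). H2-M3 presents N-formylated peptides such as those of bacteria. H2-Q6 and H2-Q7 belong to the Qa-2 group, whose products can be tethered to the membrane by a lipid anchor. H2-T10 and H2-T22 are close relatives bound by a set of gamma delta T cells. H2-Q4 lies in the same Q region as the Qa-2 genes. Interferons raise class I transcription through elements bound by IRF factors, and NLRC5 acts with them as a class I transactivator.

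All 7 genes lie on chromosome 17 in GRCm38, within the H2 complex. H2-Q4 (ENSMUSG00000035929) spans 35379617 to 35385290, H2-Q6 (ENSMUSG00000073409) 35424850 to 35430055 and H2-Q7 (ENSMUSG00000060550) 35439155 to 35443773, all on the plus strand. H2-T23 (ENSMUSG00000067212, 36029773 to 36032855), H2-T22 (ENSMUSG00000056116, 36037128 to 36042747) and H2-T10 (ENSMUSG00000079491, 36115876 to 36121465, annotated as a polymorphic pseudogene) lie on the minus strand. H2-M3 (ENSMUSG00000016206) spans 37270220 to 37274484 on the plus strand.

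Promoter windows from RefSeq (GRCm38.p6, from 250 bases before to 50 bases after the start) were found for 6 of the 7 genes, H2-T10 being the other. The 3 Q-region windows are printed because H2-Q4 moved differently from H2-Q6 and H2-Q7 although their promoters are alike, and H2-M3 is printed as the member whose transcript is least shared with other genes. Capitals mark matches to the IRF element (AANNGAAA) and the NF-kB element (GGGN, directly followed by ATTN and CC), searched on both strands. Each sequence is read 5′ to 3′ on the gene's strand. The windows are chr17:35379367-35379666 for H2-Q4, chr17:35424600-35424899 for H2-Q6, chr17:35438905-35439204 for H2-Q7 and chr17:37269984-37270283 for H2-M3, all on the plus strand.
H2-Q4: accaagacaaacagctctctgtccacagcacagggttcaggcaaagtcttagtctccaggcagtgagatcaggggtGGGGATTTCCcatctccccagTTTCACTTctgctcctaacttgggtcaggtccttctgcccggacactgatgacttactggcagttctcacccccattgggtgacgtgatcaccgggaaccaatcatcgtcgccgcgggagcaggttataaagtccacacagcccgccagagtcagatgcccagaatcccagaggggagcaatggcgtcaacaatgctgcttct
H2-Q6: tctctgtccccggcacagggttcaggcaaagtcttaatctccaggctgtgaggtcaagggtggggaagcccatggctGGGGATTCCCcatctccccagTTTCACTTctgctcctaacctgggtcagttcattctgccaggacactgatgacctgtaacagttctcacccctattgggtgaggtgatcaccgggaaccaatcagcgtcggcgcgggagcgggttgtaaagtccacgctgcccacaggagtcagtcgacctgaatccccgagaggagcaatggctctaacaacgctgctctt
H2-Q7: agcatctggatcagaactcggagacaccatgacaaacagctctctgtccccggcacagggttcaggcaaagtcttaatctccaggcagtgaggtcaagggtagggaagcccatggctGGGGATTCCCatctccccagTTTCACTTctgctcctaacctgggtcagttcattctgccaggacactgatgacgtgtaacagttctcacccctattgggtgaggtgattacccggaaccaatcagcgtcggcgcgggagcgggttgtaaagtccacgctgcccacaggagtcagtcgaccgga
H2-M3: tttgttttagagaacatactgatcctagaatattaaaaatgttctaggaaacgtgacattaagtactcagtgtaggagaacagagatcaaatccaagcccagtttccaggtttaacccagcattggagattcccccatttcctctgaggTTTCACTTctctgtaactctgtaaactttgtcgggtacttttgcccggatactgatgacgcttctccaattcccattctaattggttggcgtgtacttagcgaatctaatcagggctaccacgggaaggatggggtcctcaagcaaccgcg

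The IRF element was found in all 6 windows, and 23.9% of 32851 mouse promoter windows of this length held it. In H2-Q4, H2-Q6, H2-Q7, H2-T22 and H2-M3 its letters were AAGTGAAA on the strand opposite to the gene, and H2-T23 held AAGAGAAA and AACAGAAA on that strand. The NF-kB element was found in the 3 Q-region windows and in 0.715% of all windows. It read GGGGATTTCC in H2-Q4 and GGGGATTCCC in H2-Q6 and H2-Q7. The GAS element (TTCNNNGAA, in 8.3% of all windows) was found in H2-M3 only among the 6, and the CCAAT box (CCAAT, in 37.4%) in all 6. No 2 of these matches overlapped. The H2-Q4 window was 86.6% identical to that of H2-Q6 and 87.3% to that of H2-Q7 over their aligned bases, against 97.7% between H2-Q6 and H2-Q7. The motif letters were chosen after promoters were read, and the 3 Q-region windows are close in sequence. The shares over all windows therefore do not measure how unusual the matches are. These matches are descriptions of letters and not of bound factors.

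**Figure D1:**
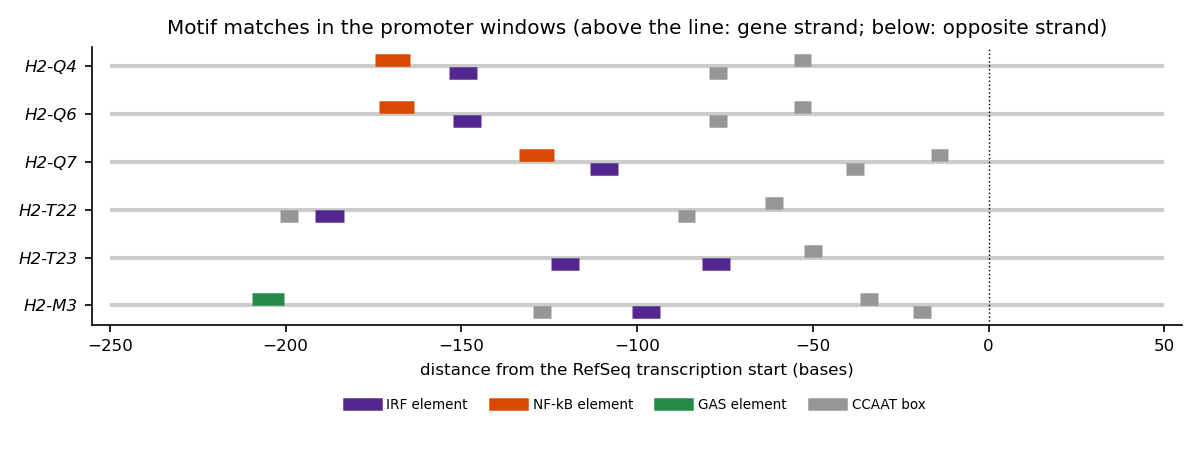
Positions of motif matches in the 6 promoter windows, in bases from the RefSeq start (dotted line), with matches on the gene strand above each line and on the opposite strand below. H2-Q4 and H2-Q6 hold the NF-kB and IRF elements at nearly the same distance from the start, and H2-T22, H2-T23 and H2-M3 hold the IRF element without the NF-kB letters.

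The members share sequence, which limits what a single value can mean. The coding sequences of H2-T10 and H2-T22 were 96.9% identical and those of H2-Q6 and H2-Q7 95.4%. H2-Q4 was 90.2% identical to H2-Q6 and 90.8% to H2-Q7. Of the stretches of 31 bases in its annotated transcripts, H2-M3 shared few, with 95.4% found in no other gene, followed by H2-T23 with 74.2% and H2-Q7 with 60.8%. The share was 48.2% in H2-Q6, 47% in H2-Q4, 35.8% in H2-T10 and 32.6% in H2-T22. H2-T10 had 47.6% of its stretches in common with H2-T22, and H2-Q4 had 19.5% in common with H2-Q6 and 16.8% with the antisense gene Gm11131, which overlaps its 5′ end. How the deposited counts divide such reads is not given in the sources used here, so values of H2-T10 and H2-T22, and of the Q-region genes, are uncertain one by one. H2-Q6 had 24.6% in common with H2-Q4 and 18.4% with H2-Q7, and H2-Q7 had 22.4% with H2-Q10, 15.5% with H2-Q5 and 8.72% with H2-Q6. H2-Q10 averaged 95.8 scaled CPM in control naive tumours, where H2-Q7 averaged 40.7. Sums of the close pairs are given too, but they do not cover sharing with H2-Q4, H2-Q5 or H2-Q10.

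Libraries held between 13815734 and 22986193 gene counts. Levels below are scaled CPM, which are CPM after library totals were adjusted with TMM factors from the 11274 genes that averaged 5 CPM or more (the expressed-gene scaling). Factors from 29648 genes kept by filterByExpr (the all-gene scaling) differed from these so as to move treated against naive by 0.55 in control tumours and by -0.27 in Sox2Hi ones (log2), with fitted values of single genes moving by about as much. The same change moved Sox2Hi against control by 0.37 in naive and -0.45 in treated tumours, and the interaction by -0.82. Reads over olfactory and vomeronasal receptor genes, taken as silent, gave an expected background of 6.36% ± 1.8 (SD, n = 3), 1.66% ± 0.11 (SD, n = 2), 3.76% ± 0.14 (SD, n = 3) and 4.50% ± 0.65 (SD, n = 2) of counts in naive control, treated control, naive Sox2Hi and treated Sox2Hi tumours. The 16 neutrophil markers summed to 15057 to 24413 scaled CPM in control naive, 47089 to 48383 in control treated, 14109 to 20586 in naive Sox2Hi and 25156 to 26158 in Sox2Hi treated. Ly6g itself was at 2.39 ± 0.89 (SD, n = 3), 14.1 ± 4.3 (SD, n = 2), 2.32 ± 0.67 (SD, n = 3) and 7.80 ± 3.1 (SD, n = 2) scaled CPM in the same order. With treatment 13 of the 16 neutrophil markers were called higher in control and 7 in Sox2Hi tumours, with medians of 1.51 and 0.71 (log2) over the list, and 15 and 6 were called higher under the all-gene scaling. The 12 keratinocyte markers summed to 2306 to 4641 in naive control, 1275 to 2141 in treated control, 3567 to 4878 in naive Sox2Hi and 2249 to 3124 in treated Sox2Hi libraries, and 7 and 4 of them (2 and 2 under the all-gene scaling) were called lower with treatment in control and Sox2Hi tumours. Macrophage and dendritic cell markers summed to 7511 to 11273, 18265 to 19189, 7534 to 10779 and 10135 to 24174 in the same groups. Of the 12 of these tested, 4 were called higher with treatment in control and 1 in Sox2Hi tumours (9 and 0 of 15 under the all-gene scaling). None was called lower, and the medians were 0.59 and 0.44 (log2). Fibroblast and endothelial markers summed to 322 to 821, 111 to 133, 497 to 694 and 141 to 357, with 7 and 4 of the 8 tested called lower with treatment (5 and 0 of 10 under the all-gene scaling). The sums were for B and plasma cell markers 95.3 to 155, 159 to 321, 201 to 866 and 87.4 to 180, and for erythroid markers 599.7 to 1554, 50.5 to 301, 264 to 567 and 25.2 to 64.1. No marker of any list was at 0 in all libraries of a group, and the part of these cells in the results below was not tested. In these bulk samples, fewer cells of a type and less RNA per cell cannot be told apart.

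Treatment raised 6 of the 7 genes in control tumours and all 7 in Sox2Hi tumours, by 2.17-fold to 9.63-fold for the 6 genes other than H2-Q4. The Qa-2 genes H2-Q6 and H2-Q7 rose the most in both grafts. H2-Q4 alone was called lower with treatment in control tumours, a call lost in 9 of 20 alternatives, and it rose in Sox2Hi tumours. The naive and treated libraries of each graft did not overlap for any of the 7 under the expressed-gene scaling, as for 68.4% of all genes tested in control and 62.4% in Sox2Hi tumours. Since the genes were chosen with results of these data known, these calls describe them and are not independent evidence. A call here is a Benjamini-Hochberg adjusted p-value under 0.05 in edgeR's quasi-likelihood test over all 11274 genes. In control tumours 57.3% of those genes were called, 24.1% as higher and 33.1% as lower in treated tumours. In Sox2Hi tumours 21.6% were called, 15.0% as higher and 6.57% as lower. Under the all-gene scaling 34.0% of 29648 genes were called in control tumours (18.7% higher, 15.3% lower) and 3.61% in Sox2Hi tumours (1.79% higher, 1.82% lower). That scaling called 6 of the 7 members in each graft, all higher, leaving out H2-Q4 in control and H2-T22 in Sox2Hi tumours. The median log2 change of the 7 was 1.56 in control tumours, where that of all genes tested was -0.18, and 1.50 in Sox2Hi tumours, where that of all genes was 0.09.

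H2-Q6 was at 27.1, 37.5 and 26.9 scaled CPM in control naive, 300.5 and 286.9 in control treated, 26.1, 29.3 and 18.6 in naive Sox2Hi and 217.6 and 181.3 in Sox2Hi treated tumours. H2-Q7 was at 34.5, 46.2 and 41.4 in control naive, 257 and 255 in control treated, 31.1, 37.8 and 26.2 in naive Sox2Hi and 184 and 166 in Sox2Hi treated. All treated libraries lay far above all naive ones for both genes, and control treated lay above Sox2Hi treated. The log2 change of H2-Q6 was 3.27 (SE 0.22, edgeR adjusted p-value 1.1e-05) in control and 3.01 (SE 0.22, 3.3e-05) in Sox2Hi tumours. That of H2-Q7 was 2.65 (SE 0.18, 1.2e-05) and 2.46 (SE 0.18, 3.8e-05). Together the pair held 71.2 ± 11 (SD, n = 3), 550 ± 11 (SD, n = 2), 56.4 ± 11 (SD, n = 3) and 374 ± 38 (SD, n = 2) scaled CPM in naive control, treated control, naive Sox2Hi and treated Sox2Hi tumours. Within the pair the balance moved towards H2-Q6, from between 64.9 and 83.8 counts per 100 counts of H2-Q7 in the 6 naive libraries to between 109 and 118 in the 4 treated ones.

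H2-T23, the Qa-1 gene, was at 84.4, 93.4 and 81.0 scaled CPM in control naive, 246 and 211 in control treated, 72.9, 77.6 and 74.2 in naive Sox2Hi and 161 and 170 in Sox2Hi treated. Treated and naive libraries did not overlap in either graft. The log2 change with treatment was 1.41 (SE 0.13, edgeR adjusted p-value 7e-05) in control and 1.15 (SE 0.13, 0.00074) in Sox2Hi tumours. Klrc1, one chain of its receptor, was at 10.48 ± 1.1 (SD, n = 3) in control naive, 20.7 and 77.9 in control treated, 9.53 ± 2.9 (SD, n = 3) in naive Sox2Hi and 24.4 and 50.3 in Sox2Hi treated libraries. Its log2 change was 2.24 (SE 0.47, 0.0025) and 1.97 (SE 0.47, 0.018) in the 2 grafts, the second of which the all-gene scaling did not call (1.69, 0.072). Its partner Klrd1 was under the mean of 5 CPM and was not tested, with a mean of 1.47 ± 0.19 (SD, n = 3) in control naive and 8.90 ± 6.7 (SD, n = 2) in control treated tumours, and of 1.504 ± 0.31 (SD, n = 3) and 5.97 ± 3.7 (SD, n = 2) in naive and treated Sox2Hi tumours. Klrc1 and Klrd1 are NK and T cell genes, and the 12 T and NK cell markers summed to 60.9 to 101 scaled CPM in control naive, 159 to 531 in control treated, 41.2 to 162 in naive Sox2Hi and 210 to 304 in Sox2Hi treated. The part of such cells in these results was not tested.

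H2-M3, the formyl peptide presenter, was at 36.7, 34.5 and 43.7 scaled CPM in control naive, 133 and 125 in control treated, 26.9, 31.2 and 26.3 in naive Sox2Hi and 72.2 and 87.4 in Sox2Hi treated. It rose with treatment by 1.75 on the log2 scale (SE 0.16, edgeR adjusted p-value 6e-05) in control and 1.50 (SE 0.16, 0.0004) in Sox2Hi tumours. Its treated and naive libraries did not overlap, and its transcripts are the least shared of the 7.

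H2-T22 was at 150, 153 and 226 scaled CPM in control naive, 552 and 381 in control treated, 132, 135 and 131 in naive Sox2Hi and 309 and 266 in Sox2Hi treated. H2-T10 was at 6.62, 4.95 and 7.16 in control naive, 21.0 and 15.8 in control treated, 3.66, 5.18 and 4.70 in naive Sox2Hi and 15.1 and 10.9 in Sox2Hi treated. The naive and treated libraries did not overlap for either gene. H2-T22 changed with treatment by 1.40 (log2, SE 0.21, edgeR adjusted p-value 0.0005) in control and 1.12 (SE 0.21, 0.0072) in Sox2Hi tumours, where the all-gene scaling gave 0.84 (0.074). Without Sox2Hi treated replicate 2 that change was 1.16 (0.066), and the fit of all genes with a count called neither H2-T22 (0.75, 0.18) nor H2-T23 (0.78, 0.051) in Sox2Hi tumours. H2-T10 changed by 1.56 (SE 0.24, 0.00056) and 1.52 (SE 0.24, 0.0034). Summed, the 2 genes held 183 ± 44 (SD, n = 3), 485 ± 125 (SD, n = 2), 137 ± 2.4 (SD, n = 3) and 300.3 ± 33 (SD, n = 2) scaled CPM in naive control, treated control, naive Sox2Hi and treated Sox2Hi tumours. H2-T10 had 73 to 301 counts a library, and expected background equalled between 2.86% and 41.4% of them. For H2-Q6, H2-Q7, H2-T22, H2-T23 and H2-M3 it was at most 5.54% in any library.

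H2-Q4 was at 19.2, 27.4 and 17.8 scaled CPM in control naive, 14.9 and 12.4 in control treated, 9.71, 10.46 and 8.32 in naive Sox2Hi and 23.9 and 22.9 in Sox2Hi treated tumours. Control treated lay below control naive, while Sox2Hi treated lay above Sox2Hi naive, with no overlap in either graft under the expressed-gene scaling. Under the all-gene scaling the control groups overlapped, the naive libraries being at 16.3, 20.96 and 16.5 and the treated ones at 17.8 and 15.9, while the Sox2Hi groups stayed apart. The log2 change was -0.65 (SE 0.21, edgeR adjusted p-value 0.022) in control and 1.30 (SE 0.21, 0.0034) in Sox2Hi tumours. The fall in control tumours rested on the scaling, since the all-gene scaling gave -0.09 (0.72) and a fit on all genes with a count gave 0.03 (0.95). It was -0.40 (0.065) without control naive replicate 2 and -0.38 (0.27) without control treated replicate 2, and it lost its call as well without control treated replicate 1 (-0.67, 0.069) or Sox2Hi treated replicate 2 (-0.52, 0.078). RLE factors (-0.51, 0.082), DESeq2 (-0.51, 0.071) and the fit of the 2 groups alone (-0.65, 0.056) did not call it either, so 9 of 20 alternatives did not. The rise in Sox2Hi tumours was called in all 20 alternatives, from 0.94 to 1.42.

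**Figure D2:**
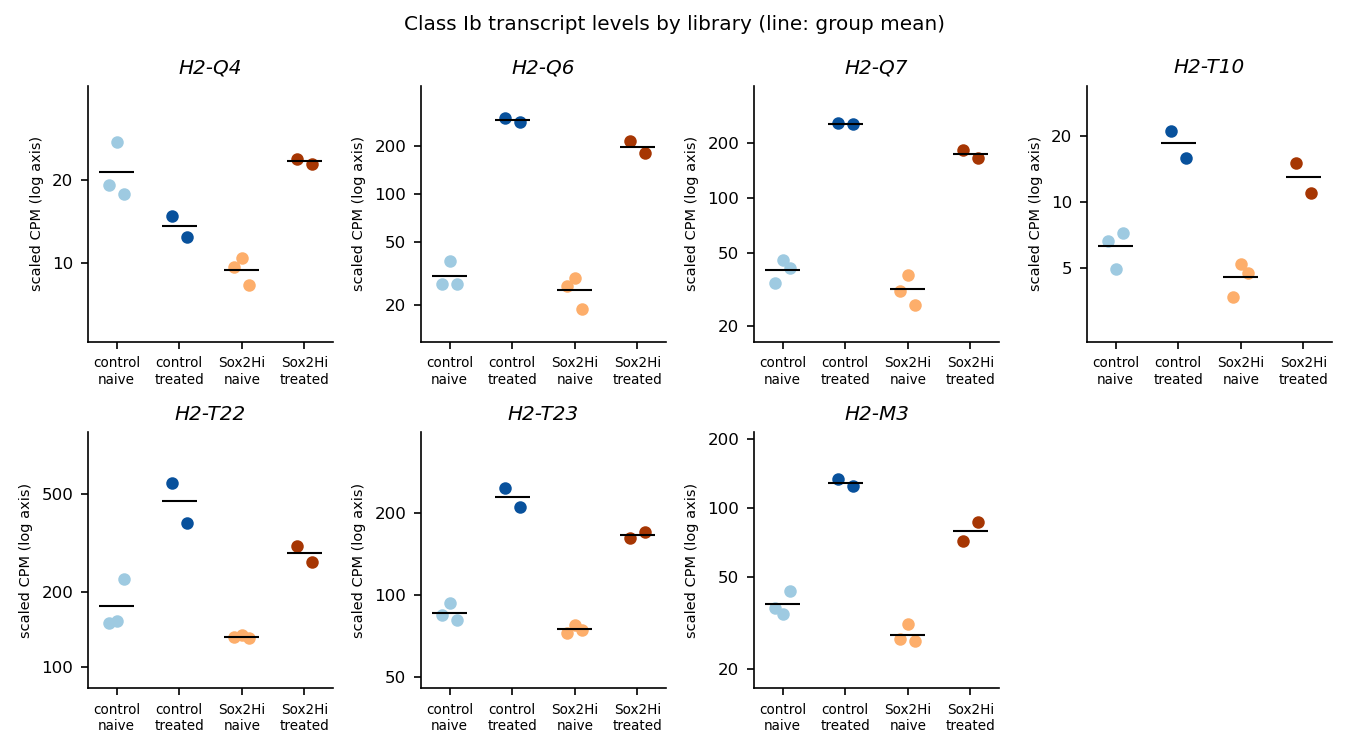
Scaled CPM of the 7 genes in each library on a log axis, by graft and treatment, with the group mean as a line. The treated libraries lie above the naive ones of the same graft in every panel except H2-Q4, where control treated libraries (14.9 and 12.4) lie below control naive and Sox2Hi treated ones (23.9 and 22.9) above Sox2Hi naive.

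Within each graft, the level of H2-Q4 moved the same way with treatment as the level of background reads. The median over 1464 receptor genes was 0.415, 0.600 and 0.345 scaled CPM per kb in control naive, 0.176 and 0.160 in control treated, 0.261, 0.239 and 0.234 in naive Sox2Hi and 0.375 and 0.364 in Sox2Hi treated libraries. H2-Q4 and this median thus both lay below their naive level in treated control tumours and above it in treated Sox2Hi tumours. Their order across all 4 groups differed. Control treated libraries had the lowest receptor medians, while H2-Q4 was higher in them than in naive Sox2Hi libraries. H2-Q4 was 13.7 to 32.6 times as high per kb, so the expected background equalled between 3.06% and 7.30% of its counts in a library. Subtracting it left the changes at -0.68 (edgeR adjusted p-value 0.043) and 1.34 (0.0089). The receptor median differed by a larger factor between treated and naive control tumours than H2-Q4 did, so the ratio of the 2 is a description and no correction. It was at 18.4 ± 1.2 (SD, n = 3) and 31.3 ± 1.9 (SD, n = 2) in control naive and treated and 15.0 ± 1.7 (SD, n = 3) and 24.4 ± 0.26 (SD, n = 2) in Sox2Hi naive and treated. The antisense gene Gm11131 (35377021 to 35380292, minus strand), with which H2-Q4 shares sequence, was at 15.96 ± 3.6 (SD, n = 3), 21.4 ± 3.3 (SD, n = 2), 10.37 ± 1.3 (SD, n = 3) and 21.0 ± 0.17 (SD, n = 2) scaled CPM. Strand use in counting is not given in the sources used here, so reads of the 2 genes cannot be told apart where they overlap. The same holds for H2-T22 and its antisense partner A930015D03Rik, at 0.95 ± 0.51 (SD, n = 3), 8.05 ± 2.3 (SD, n = 2), 0.94 ± 0.56 (SD, n = 3) and 3.31 ± 0.11 (SD, n = 2) scaled CPM in the same order of groups.

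**Figure D3:**
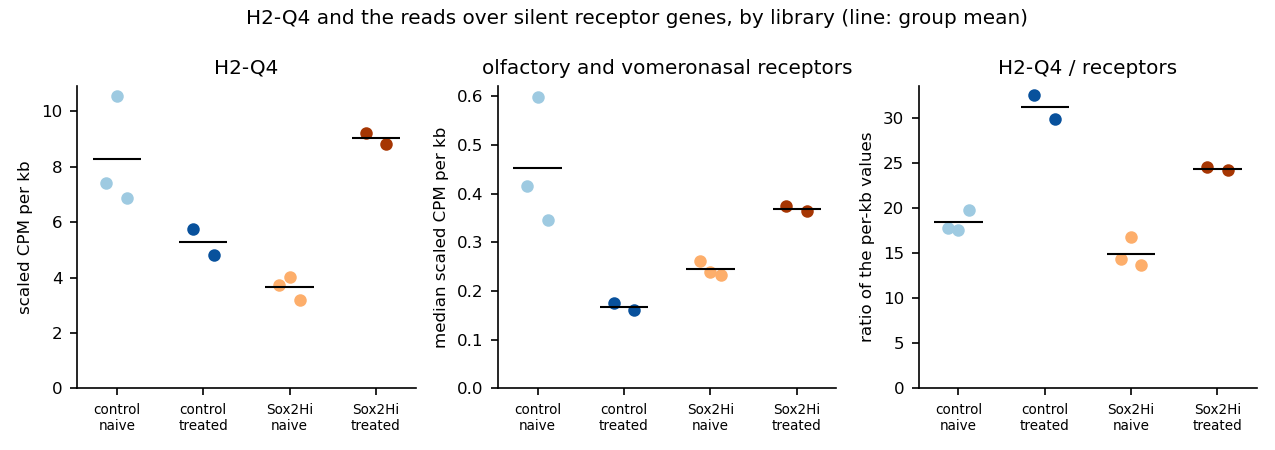
H2-Q4 in scaled CPM per kb (left), the median of 1464 olfactory and vomeronasal receptor genes on the same scale (middle) and their ratio (right), by library with the group mean as a line. Both levels are lower in control treated than in control naive and higher in Sox2Hi treated than in Sox2Hi naive, while the ratio is higher in the treated libraries of both grafts.

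Before treatment, H2-Q4 was the 1 member of 7 called between the grafts, lower in Sox2Hi tumours, where 14% of all genes were called (2.10% higher and 11.9% lower). Under the all-gene scaling the share was 1.87% (1.66% higher and 0.209% lower), and H2-Q4 was again the 1 member. Its log2 difference was -1.17 (SE 0.19, edgeR adjusted p-value 0.013), or -0.79 (0.044) with the all-gene scaling. The call was lost in the fit of all genes with a count (-0.68, 0.078), in the fit of the 2 groups alone (-1.13, 0.055) and without Sox2Hi naive replicate 3 (-1.09, 0.067). The other 6 lay between -0.47 and -0.20 and were not called. The alternative fit with limma-voom also called H2-T10 (limma-voom adjusted p-value 0.024) and H2-M3 (0.015) lower. Of the 6, H2-T22, H2-T23 and H2-M3 were lower in each Sox2Hi library than in each control library, as were 21.8% of all genes tested. The direction depended on the scaling, since the all-gene scaling put the 6 genes between -0.11 and 0.17. Under it the groups of H2-T22 and H2-M3 overlapped and H2-T23 was higher in each Sox2Hi library. The median of the 7 was -0.41, beside -0.05 over all genes tested. Of the 12 keratinocyte markers 2, Krt8 and Krt18, were called higher in naive Sox2Hi tumours under both scalings, and no neutrophil marker was called.

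In treated tumours the 6 genes other than H2-Q4 were lower in Sox2Hi than in control libraries and H2-Q4 was higher, with no overlap for any of the 7, as for 60.6% of all genes tested. Among all genes 20.9% were called, 15.0% as higher and 5.87% as lower in Sox2Hi. Of the members 2 were called, H2-M3 lower (-0.69, SE 0.18, edgeR adjusted p-value 0.022) and H2-Q4 higher (0.78, SE 0.23, 0.037). The call of H2-Q4 was lost in 13 of 20 alternatives, which put it between 0.22 and 0.93 with adjusted p-values up to 0.63, and that of H2-M3 in 5 of 20. The other 5 lay between -0.70 for H2-T22 and -0.46 for H2-T23, with adjusted p-values from 0.051 to 0.19. With the all-gene scaling all 6 were called lower, from -1.14 to -0.90, and H2-Q4 was not called (0.33, 0.27), where 13.7% of genes were called (4.18% higher and 9.57% lower). No member was called in the fit of the 2 groups alone, or without either control treated library or Sox2Hi treated replicate 1. There was 1 call without control naive replicate 1, Sox2Hi naive replicate 1 or 2, or Sox2Hi treated replicate 2, and there were 5 without control naive replicate 2. The 16 neutrophil markers moved with this comparison too, 8 of them (13 under the all-gene scaling) being called lower in Sox2Hi treated tumours and none higher. Of the 12 keratinocyte markers 4 were called higher there (1 under the all-gene scaling). So were 2 of the 8 fibroblast and endothelial markers tested (0 of 10 under the all-gene scaling), with none of either list lower. The part of cell content was not tested.

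The response to treatment differed between the grafts for H2-Q4. Its interaction, the Sox2Hi response minus the control response, was 1.95 on the log2 scale (SE 0.30, edgeR adjusted p-value 0.0012). It lay between 0.90 and 2.08 over 19 alternatives and was called in 18 of them, the exception being the fit of all genes with a count (0.90, 0.05). Among all genes 19.8% were called for the interaction, 16.9% as higher and 2.84% as lower. The other 6 members lay between -0.29 and -0.03, with adjusted p-values from 0.4 to 0.96. With the all-gene scaling 5 of them, all but H2-T10, were called lower, from -1.08 to -1.01, H2-Q4 was at 1.12 (0.011), and 27.5% of genes were called (11.3% higher and 16.2% lower). Whether the response of these 5 was smaller in Sox2Hi tumours therefore depends on the scaling, whereas the interaction of H2-Q4 was above 0 in all 19 alternatives. The 16 neutrophil markers had a median interaction of -0.80 with none called. Under the all-gene scaling it was -1.62, with 14 called lower. The part of neutrophil content was not tested.

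**Figure D4:**
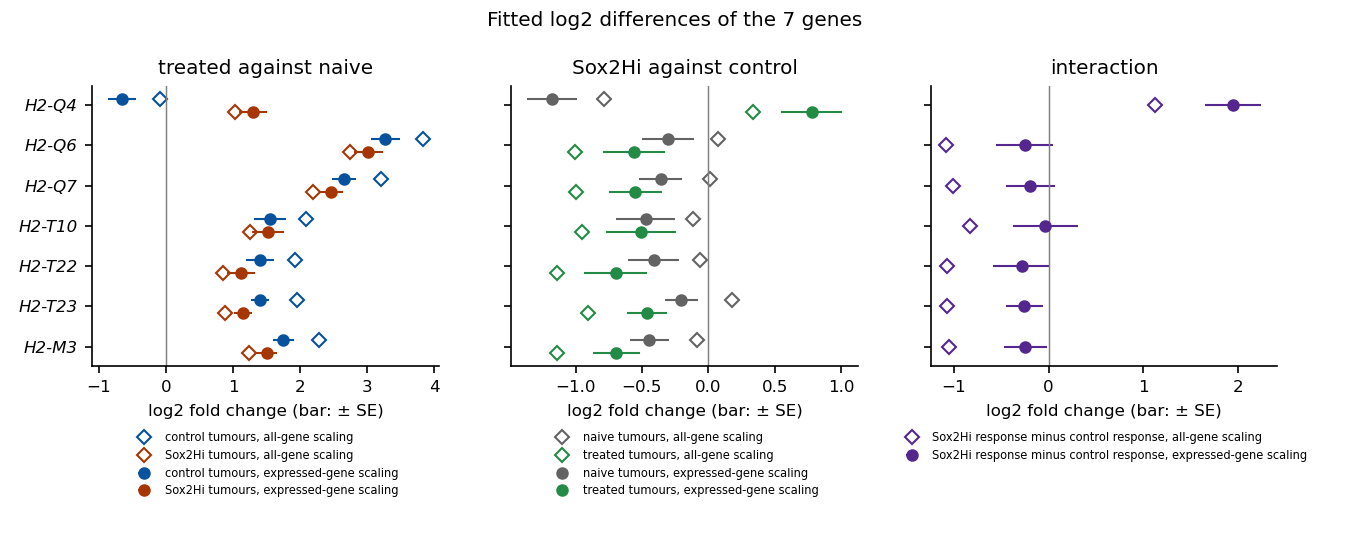
Fitted log2 differences of the 7 genes for treatment in each graft, for Sox2Hi against control at each treatment, and for the interaction. Filled points with bars (± SE) use the expressed-gene scaling and open diamonds the all-gene scaling, and H2-Q4 stands apart in the interaction under both (1.95 and 1.12).

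Ratios of counts within a library need no scaling. Per 100 counts of the classical genes H2-K1 and H2-D1 together, the 7 genes held 30.997, 26.6 and 30.0 counts in control naive, 33.2 and 39.7 in control treated, 19.0, 18.6 and 19.5 in naive Sox2Hi and 32.1 and 29.7 in Sox2Hi treated tumours. The 3 Sox2Hi naive libraries lay below all other libraries. Qa-2 counts (H2-Q6 and H2-Q7) were at 5.32, 5.62 and 4.60 per 100 in control naive, 12.1 and 16.7 in control treated, 3.60, 3.82 and 3.02 in naive Sox2Hi and 13.1 and 11.4 in Sox2Hi treated, so the treated libraries lay above the naive ones relative to the classical genes in both grafts. H2-T23 stayed between 5.36 and 7.29 per 100 in the 5 control libraries, with naive and treated overlapping. In Sox2Hi tumours it lay between 4.42 and 4.99 in the naive and at 5.28 and 5.60 in the treated libraries, with no overlap. H2-M3 was at 2.32 to 3.17 in control naive and 1.69 to 1.78 in Sox2Hi naive, and at 2.90 to 3.85 and 2.36 to 2.87 in the treated groups. H2-T10 and H2-T22 together were at 10.598 to 15.7 in control naive and 12.2 to 12.5 in control treated, against 7.95 to 9.13 and 9.10 to 10.58 in the Sox2Hi groups. H2-Q4 was at 1.20 to 1.84 in control naive, 0.324 and 0.384 in control treated, 0.559 to 0.610 in naive Sox2Hi and 0.782 and 0.752 in Sox2Hi treated. Per 100 counts of H2-Q6 and H2-Q7, its nearest relatives here, H2-Q4 held 26.1 to 32.7 counts in control naive, 2.30 and 2.67 in control treated, 15.6 to 18.5 in naive Sox2Hi and 5.96 and 6.60 in Sox2Hi treated. Relative to the Qa-2 genes, H2-Q4 was thus lower in every treated library than in every naive one. These ratios are given with no test.

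**Figure D5:**
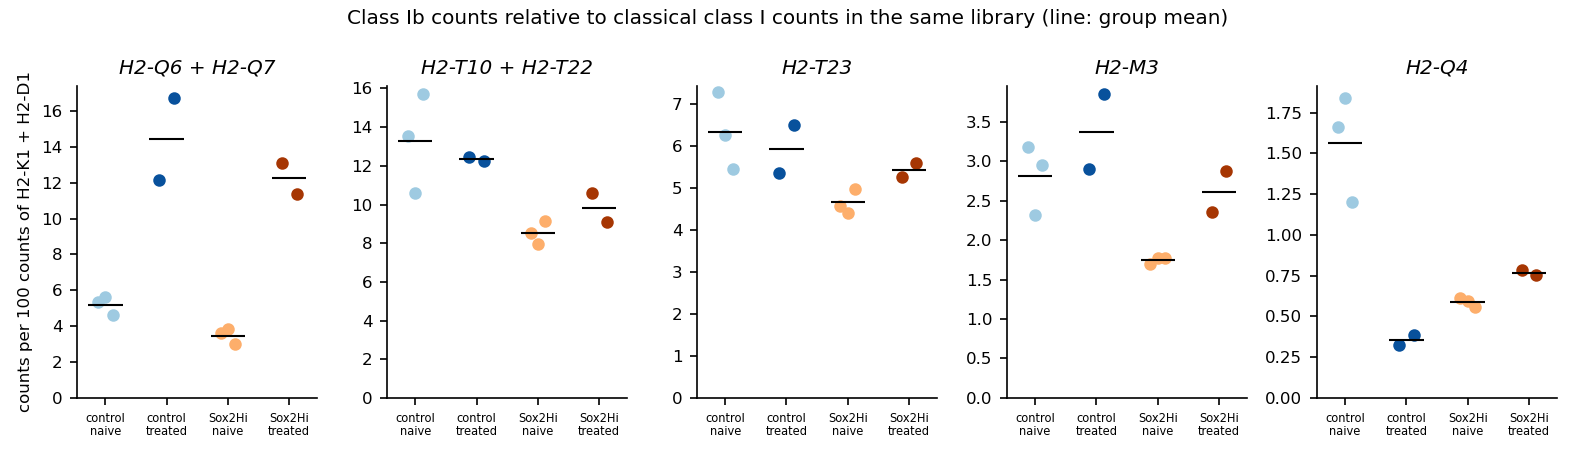
Counts of the members per 100 counts of H2-K1 and H2-D1 in the same library, by graft and treatment, with the group mean as a line and each axis starting at 0. Qa-2 counts are higher in the treated libraries of both grafts (between 11.4 and 16.7), while Sox2Hi naive libraries are the lowest for H2-M3 (1.69 to 1.78).

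Compared per length, the order of the 7 genes changed with treatment. In control naive tumours H2-T22 was the highest at 51.7 ± 13 scaled CPM per kb (SD, n = 3), followed by H2-T23 at 29.9 ± 2.2, H2-M3 at 26.6 ± 3.3, H2-Q6 at 14.6 ± 2.9, H2-Q7 at 9.54 ± 1.4, H2-Q4 at 8.27 ± 2.0 and H2-T10 at 1.83 ± 0.34. H2-T23 and H2-M3 did not differ beyond their spread, nor did H2-Q7 and H2-Q4. In control treated tumours H2-Q6 at 141 ± 4.6 (SD, n = 2) and H2-T22 at 137 ± 36 lay together at the top, above H2-M3 at 89.7 ± 4.3, H2-T23 at 79.1 ± 8.7 and H2-Q7 at 60.05 ± 0.43. H2-T10 at 5.40 ± 1.1 and H2-Q4 at 5.27 ± 0.67 lay together at the bottom. In Sox2Hi naive tumours the order was the same as in control naive, from H2-T22 at 38.8 ± 0.54 (SD, n = 3) to H2-T10 at 1.32 ± 0.23. In Sox2Hi treated tumours H2-Q6 at 95.7 ± 12 (SD, n = 2) and H2-T22 at 84.2 ± 8.8 led, and H2-Q4 at 9.02 ± 0.28 lay above H2-T10 at 3.79 ± 0.86.

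Likeness was measured as Pearson's r of log2(scaled CPM + 1) over the 10 libraries, which share the same groups. The 6 members other than H2-Q4 had r between 0.92 and 1.00 with each other, and H2-Q4 had r between 0.27 and 0.33 with them. The genes most like H2-Q6 were Ly6i, Serpina3f and Gbp10 (r of 0.996, 0.995 and 0.995), and those most like H2-Q7 were Gbp4, Tgtp1 and Ly6i (0.997, 0.995 and 0.995). H2-T23 was most like Fam174a, Gbp8 and Ube2l6 (0.997, 0.996 and 0.995). H2-M3 was most like Psme1, Psmb9 and Xaf1 (0.994, 0.991 and 0.989). H2-T22 was most like Psmb9, Usp18 and Il15ra (0.973, 0.971 and 0.971), and H2-T10 was most like Ifi213, Kin and Psmb9 (0.970, 0.965 and 0.964). Gbp4, Gbp8, Gbp10 and Tgtp1 encode interferon-inducible GTPases, and Psmb9 and Psme1 encode parts of the immunoproteasome and its activator. H2-Q4 was most like Psg16 (r of 0.974), Opcml (0.952) and Fgd4 (0.948). Fitted treatment changes were -0.26 and 0.67 for Psg16, -0.44 and 0.78 for Opcml and -0.79 and 0.93 for Fgd4 in control and Sox2Hi tumours.

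Most genes for classical class I chains and their loading were higher with treatment. Of 16 genes for classical chains, peptide supply and loading, 13 were called higher with treatment in control tumours, and in Sox2Hi tumours 12 were called higher and 1, the chaperone Canx, lower (-0.62, not called by the all-gene scaling with -0.89). Canx in control tumours (-0.40) and the chaperones Calr (-0.27 and -0.30) and Pdia3 (-0.31 and -0.50) were not called and had negative values. The medians of the 16 were 1.39 and 0.97. The all-gene scaling called 13 and 7 higher. H2-K1 changed by 1.62 and 1.14, H2-D1 by 1.42 and 0.78 (the latter 0.51 and not called under the all-gene scaling), the shared light chain B2m by 1.61 and 1.22 and the peptide transporter gene Tap1 by 1.42 and 1.35. In naive tumours 1 of the 16 was called between grafts, the immunoproteasome gene Psmb9 (-0.60), which the all-gene scaling did not call (-0.24). In treated tumours 4 were called lower in Sox2Hi, namely B2m (-0.76), Psme2 (-0.68), Psmb9 (-0.60) and Erap1 (-0.57), and the all-gene scaling called 7 lower, H2-K1 among them (-0.89). None was called for the interaction, where the all-gene scaling called 13 lower.

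Of 12 transcription regulators of class I genes, 10 were tested, and 8 were called higher with treatment in control and 7 in Sox2Hi tumours, with none lower. Nlrc5, the class I transactivator, changed by 1.40 and 1.60 and was lower in Sox2Hi naive than in control naive tumours (-0.58, SE 0.14, edgeR adjusted p-value 0.025), which the all-gene scaling did not call (-0.21, 0.38). Irf1 changed by 1.56 and 1.50. The all-gene scaling kept all 12 and called 10 and 4 of them higher. Of 23 other class Ib genes of the H2 complex, 18 were in the table and 4 were tested. All 4 were called higher in control treated tumours, namely H2-T24 (1.99), H2-Q5 (1.69), H2-M2 (1.16) and H2-Q10 (0.77), and 2, H2-Q5 (1.60) and H2-T24 (1.58), in Sox2Hi treated ones. Of 16 class I-like genes encoded elsewhere, 7 were tested. Cd1d1, which presents lipids to NKT cells, was called higher in both grafts (1.83 and 1.57, the second not called by the all-gene scaling with 1.30), and Raet1d, an NKG2D ligand gene, was higher in control treated tumours (1.13). Procr was lower in both grafts (-0.97 in each) and Ulbp1 was lower in control treated tumours (-0.76), but the all-gene scaling called Procr in Sox2Hi tumours alone and Ulbp1 in neither. In treated tumours Raet1d (-1.14) and H2-Q5 (-0.67) were called lower in Sox2Hi than in control.

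Receptors that read class I molecules were tested for 9 of 14 genes, and 7 were called higher with treatment in control and 5 in Sox2Hi tumours, with none lower. Klrk1, which encodes NKG2D, changed by 2.08 and 2.22, and Pirb, an inhibitory receptor of myeloid cells, by 1.78 and 1.07. The all-gene scaling kept all 14 and called 11 and 3 of them higher, and Pirb was not among those called in Sox2Hi tumours (0.81). In treated tumours Klra17 (-1.20) and Lilrb4a (-0.95) were called lower in Sox2Hi than in control. For the interaction Lilrb4a was called (-1.09, SE 0.31, edgeR adjusted p-value 0.028). The all-gene scaling called 5 receptor genes lower in each of these 2 comparisons.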

How the data were processed

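RNA was extracted with a microprep kit and libraries were made with a low input kit, per the labels' protocols. The authors deposited 1 table of whole-number counts per gene. The submitters' processing notes name kallisto 0.44.0 and mm10 (GRCm38) without saying what each was used for; strand use and how reads shared by several genes were divided are not given in the sources used here. The 92 spike-in and 4 transgene sequences, at most 0.00277% of a library, were left out. Symbols and coordinates came from GENCODE M21 and promoter windows from RefSeq.

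Members, gene lists and scaling were chosen with earlier results of these data known. All 7 members are reported, with the 3 genes most alike by Pearson's r (predicted genes left out), and list genes when called or when fixed by name. All 10 libraries entered 1 edgeR 4.0.16 fit (R 4.3.3) with 4 group terms, leaving 6 residual degrees of freedom, on genes averaging 5 CPM or more. The common biological coefficient of variation was 0.212. The standard error is |log2 change|/sqrt(F). Alternatives were all-gene scaling, all genes with a count, RLE factors, DESeq2 1.42.0, limma-voom 3.58.1, replicate blocks, the groups alone, and each library left out. Added after the data were seen were background subtraction, a term for the Y-linked gene Ddx3y (4 to 8 counts in 4 libraries, 1007 to 6618 in the other 6, each group holding both kinds) and a naive-only block. The motif letters were also chosen after promoters were read. Expected background is the median count per kb over 1464 receptor genes times a gene's exon length.

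Replicates differed by at least 12.5 in chi-square per degree of freedom, so none was counted as a repeat. Deviations of naive libraries with the same title number correlated at 0.27, 0.33 and 0.47. The meaning of the numbers is not labelled, and with 3 libraries a group these values cannot establish that the naive groups were paired. In both naive groups replicate 1 had few Ddx3y counts (4 and 6) and the other replicates had many. The part of this in the correlations was not tested. The fits were tested on simulated data.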

Additional observations from a re-analysis of the deposited data

Results flagged for a closer look

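The response of H2-Q4 to treatment differed between the grafts in the interaction term (1.95 on the log2 scale, SE 0.30, edgeR adjusted p-value 0.0012). Among all genes tested 19.8% were called for the interaction. The members were chosen with results of these data known, so this call is a description and not independent evidence. Both Sox2Hi treated libraries lay above all 3 Sox2Hi naive ones, and both control treated libraries lay below all 3 control naive ones under the expressed-gene scaling, but overlapped them under the all-gene scaling (17.8 and 15.9 against 16.3, 20.96 and 16.5 CPM). The reads over silent receptor genes moved the same way, and their part beyond the subtraction (2.02 with expected background subtracted, edgeR adjusted p-value 0.0052) was not tested. As a ratio to those reads, H2-Q4 was higher in treated than in naive libraries of both grafts, on average 31.3 against 18.4 in control and 24.4 against 15.0 in Sox2Hi tumours. The receptor reads themselves were on average 0.168 against 0.453 scaled CPM per kb in treated and naive control tumours, a wider relative gap than that of H2-Q4, so this ratio is no correction for background. No group had 4 or more libraries, so single libraries were not tested for standing apart from their group.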

How the results depend on the processing

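Over 700 refits of the 35 log2 differences, 619 kept their direction and their side of the threshold, 34 lost a call, 35 gained one and 12 changed sign. The number of members called with treatment stayed at 6 or 7 of 7 in control and 5 to 7 in Sox2Hi tumours. For Sox2Hi against control in naive tumours it was 0 with all genes with a count, 3 with limma-voom and 0 with the groups alone, and 0 to 1 with a library left out. In treated tumours it was 6 with the all-gene scaling, 6 with all genes with a count, 4 with RLE factors, 5 with DESeq2, 0 with the groups alone, 1 with background subtracted, and 0 to 5 with a library left out. For the interaction it was 6 with the all-gene scaling, 5 with all genes with a count and 1 with any library left out. The share of all genes called is given above for the expressed-gene and all-gene scalings alone. Counts from the other fits therefore cannot be set against a general rise or fall in calls. The cause of these shifts was not tested.

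The differences that changed sign were H2-Q4 with treatment in control tumours (0.035 with all genes with a count), and Sox2Hi against control in naive tumours for H2-Q6, H2-Q7 and H2-T23 with the all-gene scaling (0.075, 0.013 and 0.17) and for H2-Q6, H2-Q7, H2-T22 and H2-T23 with all genes with a count (0.18, 0.11, 0.019 and 0.27). The interaction of H2-T10 changed sign with limma-voom (0.028) and without control naive replicate 2 (0.0012), control treated replicate 1 (0.0075) or Sox2Hi naive replicate 2 (0.075), its range with a library left out being -0.43 to 0.075. None of these was called.

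With the replicate block by title number, 4 members were called between the treated grafts, and with the block by description number 1; the treated libraries share only a number (r of -0.09). For the naive groups the block left 1 member called, H2-Q4 (-1.17 in the fit of all libraries and -1.11 in the naive libraries alone). The block changed no other count of members called. The Ddx3y term changed no count. With 2 treated libraries a group, and counts of 73 to 404 a library for H2-T10 and H2-Q4, these 2 genes rest on the fewest reads.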
